A study of Mus musculus with 6 samples.

Results

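The genes described here are 32 genes of collagens and extracellular matrix remodelling, measured in whole mouse liver. They were taken by gene name from a deposited table of 54532 genes, and all 32 were found. The 3 control mice carried floxed Notch1 alleles (genotype Notch1fl/fl) and the 3 knockout mice lacked Notch1 in hepatocytes (genotype Hepatocyte Notch1 KO). All 6 livers came from untreated animals. The sources used here do not give the promoter that drove the deletion, nor the sex and age of the mice. The study was designed to ask what Notch1 in hepatocytes does for the liver's production of thrombopoietin, and the question put to the matrix genes here is whether they differed between these livers.

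The extracellular matrix of liver is a scaffold of collagens, elastic fibres, proteoglycans and adhesive glycoproteins. In liver most fibrillar collagen is made by hepatic stellate cells, portal fibroblasts and other mesenchymal cells, while hepatocytes are a main source of plasma fibronectin and of collagen XVIII, the precursor of endostatin. Collagen chains are hydroxylated and cleaved, then cross-linked by lysyl oxidases, and are turned over by matrix metalloproteinases, which tissue inhibitors of metalloproteinases (TIMPs) hold in check.

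Levels are FPKM, which count sequenced fragments per kilobase of a gene after scaling between libraries; errors marked SD are over the 3 livers of a group. The 6 libraries held 15612924 to 17511961 reads in genes, and all 32 genes passed the filter of a mean of at least 0.5 FPKM. Alb, the hepatocyte gene for albumin, measured 20452 to 37515 FPKM, so each library was liver by this marker. Notch1 measured 0.618, 0.965 and 0.854 FPKM in controls 1 to 3 and 0.301, 0.540 and 0.292 in knockouts 1 to 3. All knockouts lay below all controls, although the difference did not pass the threshold over all genes (limma adjusted p = 0.257). The control columns were identified by elimination, and every control value rests on that.

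Of the 32 matrix genes, 27 had a higher mean in the knockout livers and 5 a lower mean, where 48.1% of the 12022 genes tested had a higher and 51.9% a lower mean. None passed the threshold of 0.05 for the adjusted p over all genes (limma, lowest 0.106, for Timp1), and 0.0250% of all genes did. At an unadjusted p under 0.05, 8 matrix genes were higher and 2 lower, where 6.83% and 7.06% of all genes were. With the replicate number as a block, which the labels do not state to be a pairing, 15 were higher and 2 lower at that level. The shares of all genes were 7.94% and 8.18%, and 0 matrix genes passed after adjustment (lowest 0.122). A limma voom fit on reads recovered from the FPKM values gave 12 higher and 3 lower at that level, against 7.15% and 7.39% of all genes, and 0 after adjustment (lowest 0.125). The median log2 fold change of the 32 genes was 0.46, on the scale of log2(FPKM + 1), beside -0.01 over all genes tested. The knockouts lay wholly above the controls in 4 of the 32 genes and wholly below in 2, where 9.20% and 10.6% of all genes did, so these counts are near the background.

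**Figure D1:**
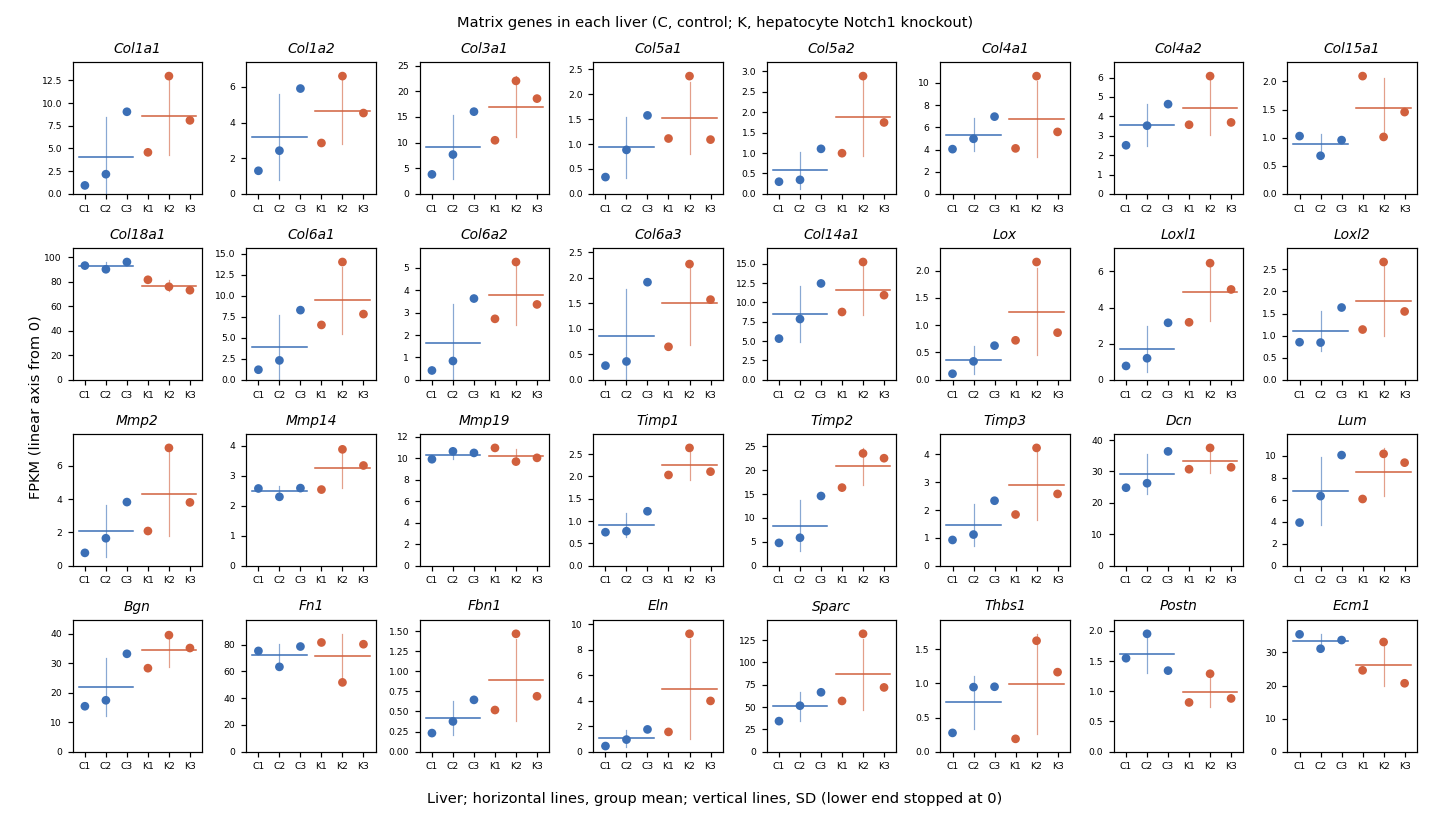
FPKM of each of the 32 matrix genes (vertical axis, linear and starting at 0, scaled per gene) in controls 1 to 3 (C1 to C3, blue) and knockouts 1 to 3 (K1 to K3, orange), with horizontal lines at the group means and vertical lines for the SD, whose lower end stops at 0. In most collagens control 3 sits near the knockouts and knockout 2 is the highest liver, while Timp1 and Timp2 separate the groups.

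The livers within each group differed from each other in the same order for most of these genes. Control 3 was the highest control in 28 of the 32 genes and control 1 the lowest in 25. Knockout 2 was the highest knockout in 28 and knockout 1 the lowest in 26. Over all genes tested, control 3 was the highest control in 32.6% and knockout 2 the highest knockout in 35.8%. Control 3 lay above knockout 1 in 25 of the 32 matrix genes, against 48.7% of all genes. All knockouts lay above both control 1 and control 2 in 22 of them, against 14.4% of all genes. The median over the 32 genes of the log2 difference from the control mean was -0.38, -0.10 and 0.44 in controls 1 to 3 and 0.15, 0.90 and 0.48 in knockouts 1 to 3. The size of the group contrast and the counts at an unadjusted p under 0.05 therefore varied with the livers included. Its direction did not, since 26 to 28 genes had a higher mean whichever liver was left out. Without control 3 the counts were 19 higher and 1 lower at an unadjusted p under 0.05 (6.60% and 5.51% of all genes), and 22 genes had no overlap with the knockouts above, where 14.5% of all genes did. In that refit 70 genes passed over all genes, among them 1 matrix gene, Timp2 (limma adjusted p = 0.0369). Without knockout 1, 14 were higher and 1 lower (7.62% and 7.86% of all genes), and 13 genes had all knockouts above (15.5% of all genes). Without control 1, 3 were higher and 1 lower (4.88% and 4.78% of all genes), with a median log2 fold change of 0.30. Without control 2, 3 were higher and 1 lower as well (5.51% and 5.43%). Without knockout 2, 4 of the 31 genes that then passed the filter were higher and 3 lower (5.96% and 6.41%), with a median of 0.29. Without knockout 3, 5 were higher and 0 lower (5.48% and 5.25%).

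**Figure D2:**
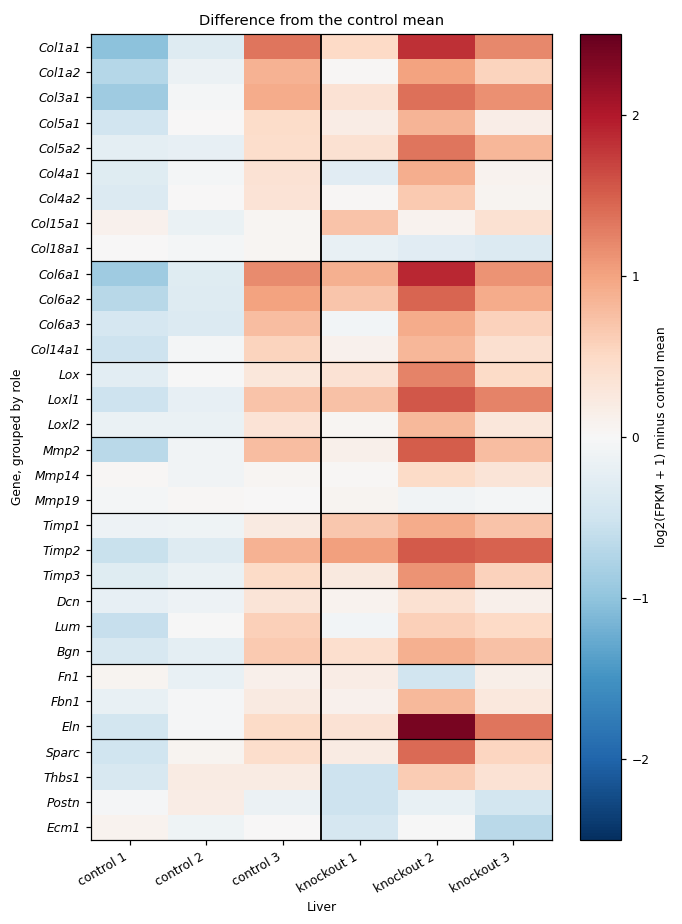
Difference of log2(FPKM + 1) from the control mean (colour scale) for the 32 genes (vertical axis, grouped by role, with black lines between roles) in each of the 6 livers (horizontal axis). Red cells gather in control 3 and in knockouts 2 and 3, and control 1 is blue in most collagens.

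The fibrillar collagens, which form the tensile fibres of the matrix, had higher knockout means in 5 of 5 genes, with log2 fold changes of 0.40 to 1.17. Col3a1, the chain of collagen III (ENSMUSG00000026043, chromosome 1, 45311538 to 45349706, GRCm38), was the most abundant of them. It measured 3.81, 7.67 and 16.0 FPKM in controls 1 to 3 and 10.5, 22.03 and 18.6 in knockouts 1 to 3. Control 3 exceeded knockout 1, so the groups overlapped, and the log2 fold change was 0.95 (SE 0.47, limma adjusted p = 0.418). Col5a2, a chain of collagen V, which sets fibril diameter, lies 24614 bases from Col3a1 on the opposite strand. It measured 0.299, 0.345 and 1.10 FPKM in controls and 0.997, 2.89 and 1.75 in knockouts, a ratio of means of 3.22. Only knockout 1 lay within the range of the controls (log2 fold change 0.85, SE 0.28, adjusted p = 0.273). Col1a1 and Col1a2, the chains of collagen I, and Col5a1 had ratios of means of 2.11, 1.45 and 1.63, with overlapping groups and adjusted p of 0.447, 0.622 and 0.580.

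Collagen I is built from Col1a1 and Col1a2 chains, and the ratio of their FPKM differed between livers. Col1a1 over Col1a2 measured 0.720, 0.894 and 1.53 in controls 1 to 3 and 1.60, 1.96 and 1.78 in knockouts 1 to 3. The groups did not overlap, with control 3 next to knockout 1. The exact two-sided permutation p was 0.10, the smallest that 3 against 3 livers can give, and 0.40 after Benjamini-Hochberg adjustment over 4 such ratios. The size of this ratio depends on gene length, since the length the authors used for Col1a2 (12426 bases) is 2.32 times its longest coding transcript in GENCODE and that for Col1a1 (6563 bases) is 1.11 times, but its differences between livers do not. The ratios Col4a1 over Col4a2 and Col6a1 over Col6a2 overlapped between groups, at 1.51 ± 0.0988 and 2.64 ± 0.315 in controls against 1.47 ± 0.301 and 2.46 ± 0.180 in knockouts (SD, n = 3). Col3a1 over Col1a1 was 4.08, 3.54 and 1.77 in controls 1 to 3, against 2.29, 1.70 and 2.296 in knockouts. It was highest in controls 1 and 2, the livers with the lowest Col1a1.

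**Figure D3:**
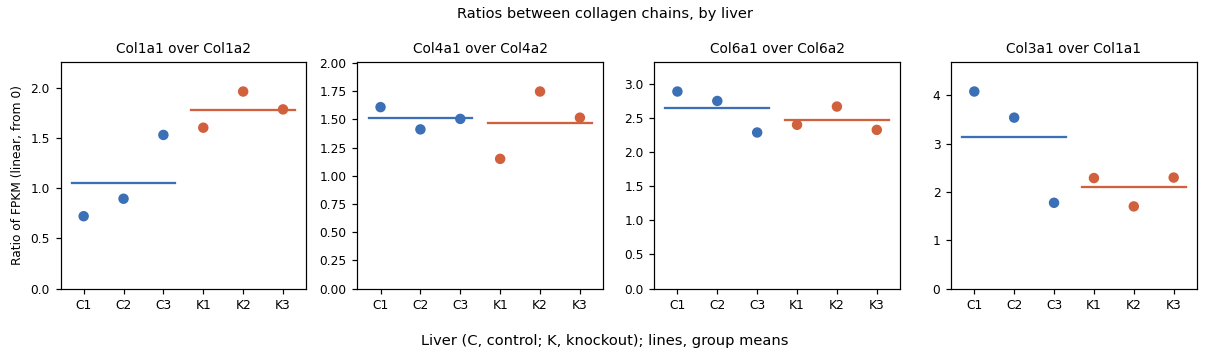
Ratio of FPKM between collagen genes (vertical axis, linear from 0) in controls 1 to 3 (blue) and knockouts 1 to 3 (orange), with lines at the group means. Col1a1 over Col1a2 is lowest in controls 1 and 2 and lies between 1.53 and 1.96 in the other livers, while Col6a1 over Col6a2 stays between 2.29 and 2.89.

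Among the collagens of basement membranes, the sheets under endothelium and epithelium, Col18a1 stood apart in direction. It encodes collagen XVIII (ENSMUSG00000001435, chromosome 10, 77052178 to 77166548) and had the highest mean of the 32 genes in the controls, though not in the knockouts, where Sparc had a higher mean. It measured 93.4, 90.4 and 96.3 FPKM in controls and 81.8, 76.1 and 73.2 in knockouts. All knockouts lay below all controls, with a mean 0.825 times that of the controls (log2 fold change -0.27, SE 0.10, adjusted p = 0.284). Col4a1 and Col4a2, which together form the collagen IV of most basement membranes, and Col15a1 had higher knockout means, by ratios of 1.27, 1.25 and 1.71, with overlapping groups (adjusted p of 0.792, 0.674 and 0.363). Without knockout 2 the log2 fold change of Col4a1 turned to -0.10. Col15a1 had another order of livers than the other collagens, with knockout 1 highest (2.10 FPKM) and control 2 lowest (0.679).

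Col4a1 and Col4a2 lie head to head on chromosome 8, with gene bodies that overlap by 22 bases and transcripts that run apart. Their levels stood in nearly the same order across the livers, with knockout 2 highest in both. The window from 250 bases before to 50 after the start of Col4a1, taken from RefSeq (chr8:11312777-11313076, GRCm38.p6, minus strand), is shown because it also holds the start of Col4a2. Capitals mark a CCAAT box and a GC box, both found on the reverse strand.
Col4a1: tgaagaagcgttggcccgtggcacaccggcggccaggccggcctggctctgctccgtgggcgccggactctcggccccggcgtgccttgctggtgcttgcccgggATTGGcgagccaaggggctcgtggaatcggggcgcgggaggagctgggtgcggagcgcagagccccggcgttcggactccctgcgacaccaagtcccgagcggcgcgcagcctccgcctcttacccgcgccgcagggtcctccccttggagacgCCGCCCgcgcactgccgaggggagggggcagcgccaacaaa

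The collagen VI chains, which form beaded microfibrils around cells, and Col14a1, a collagen that coats fibrils, had higher knockout means in 4 of 4 genes. Col6a1 measured 1.202, 2.31 and 8.30 FPKM in controls 1 to 3 and 6.53, 14.0 and 7.83 in knockouts. Control 3 exceeded knockouts 1 and 3, and the log2 fold change was 1.29 with an SE of 0.53 (adjusted p = 0.343). Col6a2 and Col6a3 had ratios of means of 2.32 and 1.76 (adjusted p of 0.360 and 0.607). Col14a1, the most abundant of this group, measured 5.32, 7.85 and 12.4 FPKM in controls and 8.76, 15.2 and 10.9 in knockouts, with overlapping groups and a ratio of 1.36 (adjusted p = 0.562).

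The lysyl oxidases cross-link collagen and elastin, and all 3 measured had higher knockout means. Loxl1, which acts on elastic fibres (ENSMUSG00000032334, chromosome 9, 58287738 to 58313186), measured 0.768, 1.19 and 3.16 FPKM in controls 1 to 3 and 3.18, 6.46 and 5.003 in knockouts. Every knockout lay above every control, although control 3 and knockout 1 were nearly equal (ratio of means 2.86, log2 fold change 1.18, SE 0.34, adjusted p = 0.224). Lox measured 0.111, 0.337 and 0.626 FPKM in controls and 0.723, 2.16 and 0.863 in knockouts, resting on 8 to 208 reads per library. The groups did not overlap, and knockout 2 was 3.199 times the median liver (adjusted p = 0.313). Loxl2 had a ratio of means of 1.61 with overlapping groups (adjusted p = 0.513).

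The substrate of Loxl1 in elastic fibres, elastin, showed the largest ratio of means of the 32 genes. Eln measured 0.436, 0.941 and 1.74 FPKM in controls 1 to 3 and 1.54, 9.23 and 3.97 in knockouts 1 to 3, a ratio of 4.73. Knockout 2 was 5.62 times the median liver, and knockout 1 lay within the range of the controls (log2 fold change 1.36, SE 0.49, adjusted p = 0.296). Fbn1, the fibrillin scaffold on which elastin is laid down, had a ratio of 2.14 (adjusted p = 0.450). Fn1, fibronectin, measured 75.2, 63.3 and 78.5 FPKM in controls and 81.6, 51.7 and 80.3 in knockouts. Its means were nearly equal (ratio 0.984, 95% interval of the log2 fold change -0.51 to 0.41), and knockout 2, the highest liver for most matrix genes, was the lowest for Fn1.

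The metalloproteinase inhibitors had higher knockout means in 3 of 3 genes. Timp1, an inhibitor induced in injured liver (ENSMUSG00000001131, chromosome X, 20870166 to 20874735), measured 0.751, 0.773 and 1.22 FPKM in controls 1 to 3 and 2.03, 2.64 and 2.11 in knockouts. All knockouts lay above all controls, with a ratio of means of 2.47 and the smallest p of the 32 genes (log2 fold change 0.77, SE 0.13, adjusted p = 0.106, and 0.173 by voom), at 10 to 47 reads per library. Its gene body overlaps that of Syn1, a gene on the opposite strand that measured at most 0.322 FPKM. Whether their exons overlap, so that reads could be shared, was not examined. Timp2, which also takes part in activating MMP2 (ENSMUSG00000017466, chromosome 11, 118301069 to 118355740), measured 4.77, 5.85 and 14.6 FPKM in controls and 16.3, 23.5 and 22.5 in knockouts. The groups did not overlap, with control 3 just below knockout 1 (ratio 2.47, log2 fold change 1.34, SE 0.36, adjusted p = 0.202). Timp3, which is bound to the matrix, had a ratio of 1.98 with overlapping groups (adjusted p = 0.361).

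The metalloproteinases themselves varied less uniformly. Mmp2, the gelatinase that cleaves collagen IV, had a ratio of means of 2.08 and overlapping groups (adjusted p = 0.476). Mmp14, the membrane protease that activates MMP2, had a ratio of 1.31 (adjusted p = 0.414). Mmp19, the most abundant of the 3 on the FPKM scale, measured 9.90, 10.6 and 10.5 FPKM in controls and 10.96, 9.68 and 10.03 in knockouts. Its 95% interval for the log2 fold change was -0.22 to 0.19, and it followed neither the order of the controls nor that of the knockouts seen in the collagens.

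The small leucine-rich proteoglycans, which bind collagen fibrils, had higher knockout means in 3 of 3 genes. Bgn, biglycan, measured 15.4, 17.4 and 33.2 FPKM in controls 1 to 3 and 28.3, 39.6 and 35.2 in knockouts. Control 3 lay above knockout 1 (log2 fold change 0.69, SE 0.28, adjusted p = 0.345). Dcn, decorin, the most abundant of the 3, measured 24.8, 26.2 and 36.4 FPKM in controls and 30.7, 37.5 and 31.3 in knockouts, a ratio of 1.14 (adjusted p = 0.644). Lum, lumican, which lies 46984 bases from Dcn on the same strand, had a ratio of 1.26 (adjusted p = 0.671).

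The remaining matrix proteins differed in direction. Sparc, a collagen-binding glycoprotein, measured 34.2, 51.5 and 66.5 FPKM in controls 1 to 3 and 56.8, 132 and 72.0 in knockouts, with knockout 1 inside the range of the controls (log2 fold change 0.72, SE 0.35, adjusted p = 0.416). Postn, periostin, a matricellular protein of fibroblasts (ENSMUSG00000027750, chromosome 3, 54361109 to 54391037), measured 1.55, 1.95 and 1.34 FPKM in controls and 0.814, 1.29 and 0.881 in knockouts. All knockouts lay below all controls, with a mean 0.617 times that of the controls (log2 fold change -0.39, SE 0.14, adjusted p = 0.286). Ecm1, which in liver keeps latent TGF-beta inactive, had a knockout mean 0.781 times that of the controls, with knockout 2 inside the range of the controls (adjusted p = 0.397). Thbs1, thrombospondin 1, an activator of latent TGF-beta, had a ratio of 1.37 with overlapping groups (adjusted p = 0.867).

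**Figure D4:**
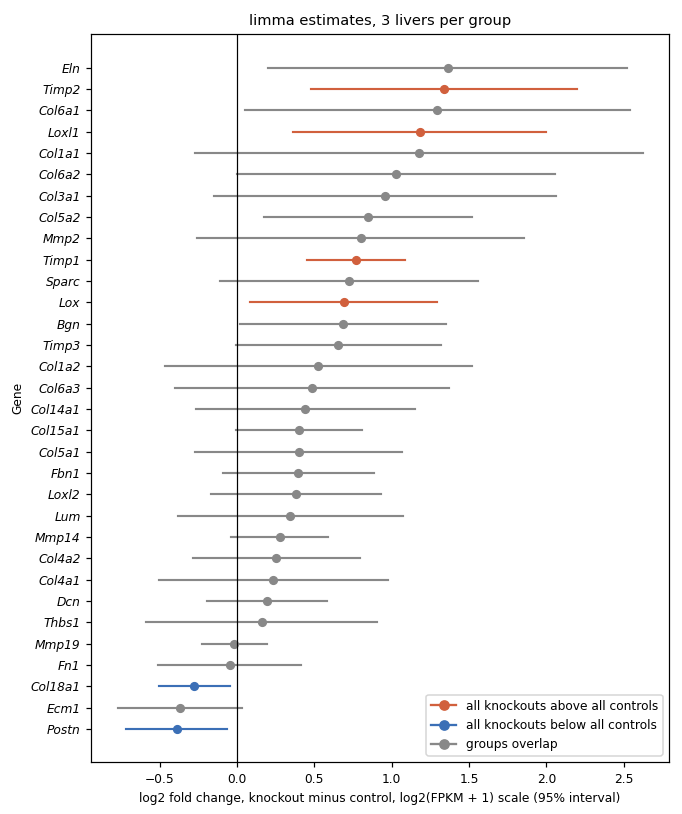
limma log2 fold change, knockout minus control, with its 95% interval (horizontal axis, log2(FPKM + 1) scale) for the 32 genes (vertical axis, ordered by fold change). Orange marks genes with all knockouts above all controls (Timp2, Loxl1, Timp1 and Lox), blue those with all knockouts below (Col18a1 and Postn) and grey those whose groups overlapped.

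Of the 6 genes whose groups did not overlap, 4 had a promoter window in the RefSeq table (GRCm38.p6), and these are shown so that the genes on either side of the contrast can be read side by side. The windows run from 250 bases before to 50 after a start: chrX:20869916-20870215 (plus strand) for Timp1, chr11:118355362-118355661 (minus strand) for Timp2, chr10:77166481-77166780 (minus strand) for Col18a1 and chr3:54360857-54361156 (plus strand) for Postn. The RefSeq start used for Timp2 lies 329 bases inside the gene start of the deposited table. For every gene the RefSeq start nearest that gene start was taken, and whether it is the start used in liver was not examined. Capitals mark matches to the motifs described after them.
Timp1: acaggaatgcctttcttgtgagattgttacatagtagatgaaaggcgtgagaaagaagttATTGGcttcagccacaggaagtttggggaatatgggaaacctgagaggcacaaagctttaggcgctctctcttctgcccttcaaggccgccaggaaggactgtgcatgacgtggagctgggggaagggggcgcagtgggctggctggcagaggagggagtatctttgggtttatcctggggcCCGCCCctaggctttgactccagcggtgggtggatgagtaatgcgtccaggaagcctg
Timp2: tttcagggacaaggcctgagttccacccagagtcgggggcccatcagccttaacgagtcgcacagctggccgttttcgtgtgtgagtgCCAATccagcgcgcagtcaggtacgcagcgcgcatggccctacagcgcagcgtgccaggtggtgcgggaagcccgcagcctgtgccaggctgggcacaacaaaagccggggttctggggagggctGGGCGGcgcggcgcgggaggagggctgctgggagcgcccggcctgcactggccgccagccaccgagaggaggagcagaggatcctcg
Col18a1: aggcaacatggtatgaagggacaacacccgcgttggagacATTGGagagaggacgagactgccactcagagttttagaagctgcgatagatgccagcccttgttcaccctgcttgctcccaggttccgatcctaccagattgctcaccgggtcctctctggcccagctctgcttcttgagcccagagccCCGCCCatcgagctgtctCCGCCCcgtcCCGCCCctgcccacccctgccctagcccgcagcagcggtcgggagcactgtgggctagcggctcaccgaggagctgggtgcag
Postn: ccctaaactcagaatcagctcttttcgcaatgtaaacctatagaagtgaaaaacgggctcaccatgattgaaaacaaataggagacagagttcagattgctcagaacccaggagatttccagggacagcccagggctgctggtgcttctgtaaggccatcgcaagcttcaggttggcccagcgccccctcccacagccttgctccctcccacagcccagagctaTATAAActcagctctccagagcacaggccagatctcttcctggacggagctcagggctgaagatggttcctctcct

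Windows were matched for 19 of the 32 genes and searched on both strands for 6 motifs, none of which contains another. The GC box GGGCGG was in 68.4% of the 19 windows and in 42.8% of the 20479 windows of genes in the table. The CCAAT box CCAAT was in 36.8% and 38.2%, the TATA box TATAAA in 15.8% and 13.2%, the SMAD motif CAGACA in 26.3% and 19.5%, and the AP-1 motif TGANTCA in 10.5% and 7.34%. GTGGGAA, the core bound by RBPJ, the DNA-binding partner of Notch, was in 1 of the 19 windows (Fbn1), or 5.26%, against 6.38% of all windows. The RefSeq start used for Fbn1 lies 1555 bases inside the gene start of the deposited table. Those used for Sparc and Col1a2 lie 3103 and 804 bases inside theirs. Of the 4 genes printed, Timp1, Timp2 and Col18a1 had a CCAAT box and at least 1 GC box, and Postn had a TATA box 26 bases before its start.

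Genes of related function were taken from 7 further lists. Of 170 genes, 96 were tested, and 0 passed the threshold over all genes (limma, lowest adjusted p = 0.105). In 76 the mean was higher in the knockouts and in 20 lower, where 48.1% and 51.9% of all genes were. Fbln1, Mfap5, Lama5 and Tgfb2 had control means of 0.265, 0.101, 0.406 and 0.345 FPKM. These and some others passed the filter only through the knockouts, so the counts over these lists are not support of their own. At an unadjusted p under 0.05, 31 were higher and 1 lower, where 6.83% and 7.06% of all genes were, and voom gave 38 in either direction, against 14.5% of all genes. Among matrix glycoproteins and proteoglycans, 22 of 26 had a higher mean. Efemp1, fibulin 3, measured 4.45, 8.37 and 20.3 FPKM in controls 1 to 3 and 31.7, 53.4 and 43.1 in knockouts (log2 fold change 2.06, SE 0.47, adjusted p = 0.165), and Fbln1, fibulin 1, 0.0610, 0.129 and 0.606 against 1.99, 1.80 and 1.49. Neither gene's groups overlapped.

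Of the collagen processing enzymes, 13 of 17 had a higher mean. Tgm2, a transglutaminase that cross-links matrix proteins, measured 15.7, 15.2 and 17.97 FPKM in controls and 23.4, 28.7 and 25.9 in knockouts (adjusted p = 0.106), and its groups did not overlap. Pcolce, which enhances procollagen cleavage, measured 2.68, 3.46 and 6.37 against 7.57, 13.4 and 9.56 FPKM (adjusted p = 0.182). Of the TGF-beta ligands, receptors and targets, 16 of 19 had a higher mean. Tgfb3, a TGF-beta ligand, measured 0.355, 0.812 and 2.45 against 3.04, 4.67 and 4.20 FPKM (adjusted p = 0.186), and Bambi, a decoy receptor, had a ratio of means of 1.93. Laminins, nidogens and perlecan had a higher mean in 8 of 9 genes, with ratios of 3.45 for Lama5 and 1.93 for Lamc1. Of the matrix receptors, 12 of 17 were higher. Ddr1, a collagen receptor kinase, and Itga3, an integrin subunit, had ratios of 3.16 and 2.08. Sdc2, a heparan sulfate proteoglycan, measured 50.2, 45.6 and 46.1 FPKM in controls and 42.6, 37.4 and 36.4 in knockouts, with all knockouts below (adjusted p = 0.301). The 31 other collagens had 4 tested genes, 2 higher and 2 lower, and the 23 other metalloproteinases and inhibitors had 5, with 4 higher and 1 lower.

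Markers of the cells that could carry these transcripts were read from the same livers. In whole tissue, a change in the number of cells of a type and a change in RNA per cell cannot be told apart. Markers of mesothelium, the cell layer that covers the liver, had higher knockout means in 10 of 10 tested genes, and all knockouts lay above all controls in 9, where 9.20% of all genes did. Among these 10, Wt1, Cdh3 and Bnc1 had control means of 0.261, 0.409 and 0.343 FPKM and passed the filter only through the knockouts, so these counts are not support of their own. The summed level of the 11 mesothelial markers was 6.74, 15.9 and 64.1 FPKM in controls 1 to 3 and 102, 177 and 140 in knockouts 1 to 3, and none of the 11 was at 0 in all livers. This is the order of livers seen in the matrix genes, except that control 3 lay below knockout 1. Msln, mesothelin, measured 2.02, 3.90 and 19.1 FPKM in controls and 36.6, 60.7 and 41.8 in knockouts. Portal fibroblast and myofibroblast markers had higher means in 8 of 8 tested genes, where 48.1% of all genes did. Of these, Thy1 and Clec3b had control means of 0.441 and 0.478 FPKM and passed the filter only through the knockouts. This count is therefore not support of its own either. The summed level of the markers on this list was 7.90 to 28.1 FPKM in controls and 30.8 to 72.2 in knockouts. Dpt, Fbln2 and Mfap4 of this list were also counted among the matrix glycoproteins and proteoglycans above. Dpt, picked after its values were seen, measured 3.29, 7.75 and 13.2 FPKM in controls and 16.9, 14.7 and 35.15 in knockouts, a large part of that sum.

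Markers of hepatic stellate cells had a higher knockout mean in 4 of 12 genes and a lower mean in 8, with a summed level of 92.4 to 92.8 FPKM in controls and 65.3 to 100 in knockouts. Within groups they shared part of the order of the matrix genes: knockout 2 was the highest knockout in 8 of 12 and control 3 the highest control in 7 of 12. Ecm1, a matrix gene of this set, is also on the stellate list and makes up much of that sum. Sinusoidal endothelial markers had a lower mean in 10 of 12 genes (82.7 to 104 FPKM summed in controls, 76.8 to 98.7 in knockouts). Kupffer cell and macrophage markers were higher in 4 and lower in 5 of 9 (257 to 347 against 277 to 349 FPKM summed). Of 8 smooth muscle markers 3 were tested, Acta2, Des and Smtn, all with a higher mean and overlapping groups (4.38 to 6.84 against 6.60 to 22.1 FPKM summed). Acta2 is also on the myofibroblast list and Des on the stellate list. Acta2, also picked after its values were seen, measured 1.31, 1.09 and 2.43 FPKM in controls and 2.33, 9.89 and 14.4 in knockouts. Of 10 cholangiocyte markers 4 were tested and all had a higher mean (12.8 to 16.1 against 23.6 to 32.8 FPKM summed); Krt19, on both this and the mesothelial list, is among them, while Ggt1 was listed at 0 in all livers. Hepatocyte markers had a lower mean in 10 of 12 genes, and their summed level was 50399 to 58640 FPKM in controls and 36026 to 47488 in knockouts, without overlap; Alb makes up most of that sum. None of these markers passed the threshold over all genes with all 6 livers. Without control 3, 7 did (Msln, Krt19, Upk3b, Lrrn4, Upk1b, Krt7 and Gpm6a, limma adjusted p of 0.0184 to 0.0492), among 70 genes that passed over all genes. Control 3 was the highest control in 11 of the 11 mesothelial markers, so leaving it out lowered each of their control means. In no other refit did any of the markers pass. The part of any of these cell types in the differences of the matrix genes was not tested.

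**Figure D5:**
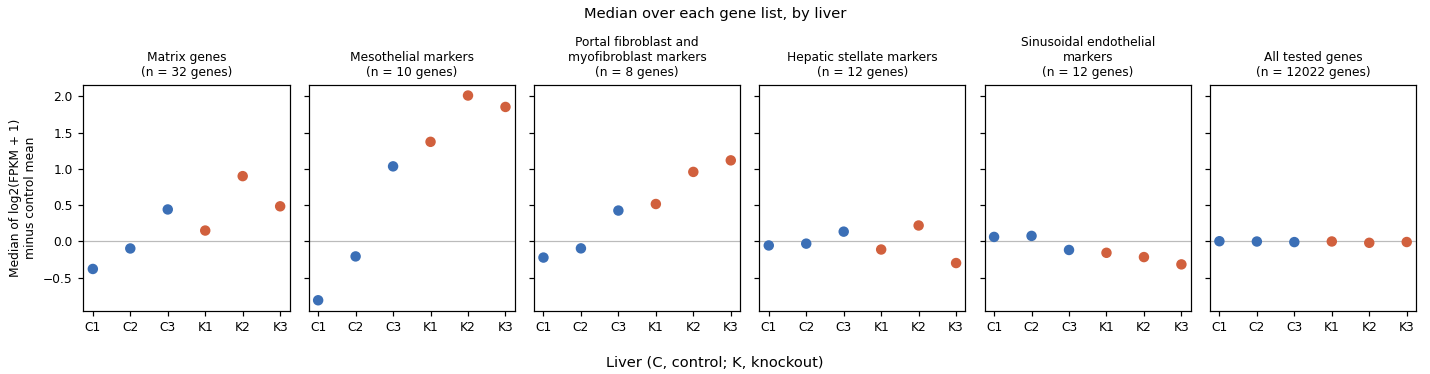
Median over each list of the difference of log2(FPKM + 1) from the control mean (vertical axis) in controls 1 to 3 (blue) and knockouts 1 to 3 (orange), for the matrix genes, 4 marker lists and all tested genes. Mesothelial markers run from -0.81 in control 1 to 2.01 in knockout 2 and the matrix genes from -0.38 to 0.90 in the same livers, while stellate markers stay between -0.30 and 0.22.

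The labels state no pairing of livers, so pairs by replicate number are a reading of the numbers only. Read in same-numbered pairs, 12 of the 32 matrix genes were higher in the knockout of all 3 pairs and 2 were lower in all 3 (Col18a1 and Postn), where 18.9% and 21.2% of all genes tested were. The pairs differed: knockout 3 and control 3 were close in most collagens (Col1a1 measured 8.09 and 9.04 FPKM), while knockout 2 and control 2 were far apart (12.97 and 2.17), as were knockout 1 and control 1 (4.57 and 0.934). Col1a1 was chosen here after its values were seen.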

How the data were processed

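RNA from 6 whole livers was sequenced; per the labels' protocols, the libraries were made from poly-T selected RNA extracted with Trizol. Per the submitters' processing notes, HISAT2 2.0.5, featureCounts 1.5.0-p3 and GRCm38 were used, without settings; the sources used here do not state the strandedness. The authors deposited FPKM values per gene, with gene names, coordinates and lengths. Multiplied by gene length, 100% of values above 0 came out as whole reads (tolerance 0.1 read) of a fixed size in each library. The divisor followed the median ratio of reads to their geometric mean over libraries, not the read total, so scaling between libraries is already in the values. For a gene 1 kilobase long, 3 reads correspond to 0.150 to 0.201 FPKM.

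Knockout columns carry the group's name and number; the columns named NC were taken as controls by elimination, with 0 columns left over. The labels do not describe litters or housing, and the p-values reflect only how these 6 livers vary. By gene identifier 54409 genes were found in GENCODE M21, of which 53499 had the same coordinates.

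The 12022 genes whose mean over all livers reached 0.5 FPKM entered a two-sided limma 3.58.1 fit of log2(FPKM + 1) in R 4.3.3 (eBayes with trend). A gene low in the controls could thus pass through the knockouts, as Lox and Fbn1 did, with control means of 0.358 and 0.417 FPKM. P-values were adjusted by Benjamini-Hochberg over all of these genes, with a threshold of 0.05. Adding 1 FPKM makes fold changes of low genes look smaller than they are. Same-numbered livers correlated in their deviations from the group means at 0.31, 0.16 and 0.10, and other pairs at -0.25 to 0.11. Deviations within a group sum to 0, so positive values in some pairs bring negative values in others, and this contrast is partly built in. Control 3 with knockout 2, at 0.11, also lay above control 3 with knockout 3, at 0.10. The evidence for pairs comes from the values alone, and the block with replicate number was used as an alternative. The 32 genes, the further lists and the markers were chosen with earlier results of these data known. Values in each liver are given for genes whose groups did not overlap, with an unadjusted p under 0.05, highest in their role, or with a liver over 3 times the median; of the further lists, up to 2 genes per direction with the smallest p, no overlap and at least 1 FPKM. Alternatives covered pseudocounts, filters, scaling, weights, the replicate block, voom on recovered reads and leaving out each liver. Genes whose bodies overlap may share reads where their exons also overlap, which was not examined. For the 32 genes such partners measured at most 1.09 FPKM, except Col4a1 and Col4a2, whose bodies overlap each other.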

Additional observations from a re-analysis of the deposited data

How the results depend on the processing

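Results were refitted under 17 alternatives, 6 of which leave out a liver. The direction of 28 of the 32 genes held in every refit that tested them. The other 4 turned in at least 1: Fn1 measured a log2 fold change of 0.036 with quantile normalization, 0.10 with equal FPKM totals and 0.065 with array weights, and Mmp19 0.12 with equal FPKM totals. When a liver was left out, Fn1 ranged from -0.16 (without knockout 1) to 0.16 (without knockout 2), Mmp19 from -0.063 to 0.018, Thbs1 from -0.077 to 0.50 and Col4a1 from -0.10 to 0.49 in the same refits. The cause was not tested. The count of matrix genes past the threshold was 0 in the refits with all livers and 0 to 1 when a liver was left out (Timp2 without control 3). The number with a higher mean was 24 of the 29 genes tested with a filter at 1 FPKM and 26 to 29 in the other refits, and their median log2 fold change 0.29 to 0.78.

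Over all genes, 3 passed the threshold, 1 with a pseudocount of 0.1, 0 without a filter, 5 with equal FPKM totals, 15 with voom, 0 with the replicate block and 0 to 70 when a liver was left out. Equal totals moved the median of all genes to 0.10, and the shares higher and lower at an unadjusted p under 0.05 to 9.32% and 2.52%, from 6.83% and 7.06%. Relative to that shift the median of the matrix genes (0.57) was close to that of the deposited scaling (0.46). In the block fit, 17 matrix genes were at an unadjusted p under 0.05 in place of 10, where 16.1% of all genes were in place of 13.9%. The count-model tests listed in advance were left out, although whole reads could be recovered, and voom was run on those reads. Levels of Timp1 and Lox rest on few reads (from 10 and 8 per library).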
